A study of Mus musculus with 6 samples.

Results

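The aldehyde dehydrogenases and the glutathione S-transferases are enzyme families that convert reactive aldehydes and electrophiles inside cells. They also serve in folate, retinoid and amino acid metabolism. Their genes were taken from the count table by symbol, as every name starting with Aldh and a digit, with Gst, a class letter (a, k, m, o, p, t or z) and a digit, or reading Mgst1, Mgst2 or Mgst3. This gave 46 of 26264 listed genes, 21 aldehyde dehydrogenases, 22 glutathione S-transferases and 3 microsomal ones.

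Bulk RNA was sequenced from neural stem cells of adult mouse spinal cord (C57BL6J background) that carry a green fluorescent reporter of Pdgfra, the receptor that marks oligodendrocyte precursors. All cells were cultured with the growth factors EGF and FGF2 and then sorted. The GFP-positive group holds 3 libraries labelled with the genotype PDGFRaGFP/+, and the GFP-negative group 3 libraries labelled PDGFRaGFP/-. The labels do not explain this difference, and the genotype as labelled and the sorted fraction cannot be told apart in these libraries. The GFP-negative group is whatever did not carry the fluorescence, so it is defined by the sort and not by a marker of its own, and the series title calls the spinal cord adult without giving an age. Each number, 314, 315 and 316 (replicates 1, 2 and 3), is shared by a GFP-positive and a GFP-negative library, and the labels do not say whether it stands for an animal, a culture or a day. The p-values therefore measure the spread between these libraries, which may be technical.

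GFP-positive libraries held between 36846570 and 45207335 counts, and GFP-negative ones between 31067850 and 32869705. Pdgfra, the gene behind the sort, lay between 205 and 245 counts per 1000000 counts (CPM) in the GFP-positive libraries and between 8.04 and 19.3 CPM in the GFP-negative ones. All 9 oligodendrocyte precursor markers, Pdgfra among them, were higher in GFP-positive cells, at 4691 to 4938 CPM in sum, against 2266 to 2575 CPM in GFP-negative cells. Of 11 astrocyte markers (no member of either enzyme family among them), 10 were tested and all 10 were lower in GFP-positive cells, with a summed level of 510 to 627 CPM in GFP-positive libraries, against 3747 to 4644 CPM in the GFP-negative ones. All 6 neural stem markers were lower as well, at 1625 to 1839 CPM in sum in GFP-positive and 5379 to 6116 CPM in GFP-negative libraries. The 3 tested of 6 ependymal markers (Foxj1, Rfx2 and Rsph1) were lower too, at 5.01 to 6.96 CPM for the list in GFP-positive libraries, against 16.6 to 24.4 CPM in the GFP-negative ones, with Tmem212 at 0. The 3 tested of 6 neuron markers (Rbfox3, Snap25 and Syt1) were higher, the list summing to 32.4 to 39.8 CPM in GFP-positive libraries, against 7.31 to 13.4 CPM in the GFP-negative ones, with Slc17a6 at 0. Of 3 tested mature oligodendrocyte markers of 6, Mbp and Cldn11 were higher and 1 was not called. None of 5 erythroid markers was tested, and 4 were at 0. Of 7 microglial markers 1 was tested and none called, and the summed level was 0.490 to 1.14 CPM in GFP-positive libraries, against 0.576 to 2.65 CPM in the GFP-negative ones, with C1qa at 0 throughout. Of 3 tested endothelial markers of 6, 1 was lower and 2 were not called, and the list summed to 1.39 to 2.26 CPM in GFP-positive libraries, against 2.55 to 9.82 CPM in the GFP-negative ones, with Cldn5 at 0. Of 2 tested fibroblast and mural markers of 8, 1 was lower and 1 not called, and the list summed to 0.409 to 9.38 CPM in GFP-positive libraries, against 2.58 to 104 CPM in the GFP-negative ones, and nearly all of the highest sum was Col3a1 in replicate 2, at 102 CPM. The part of these cell type markers in the results that follow was not tested. In bulk samples, fewer cells of a type and less RNA per cell cannot be told apart.

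As background, aldehyde dehydrogenases oxidise aldehydes to acids with NAD or NADP. Aldh1l1 is in wide use as a marker of astrocytes, and the Aldh1a enzymes make retinoic acid from retinal. Glutathione S-transferases join glutathione to electrophiles, and many of their genes are targets of the transcription factor Nrf2 (encoded by Nfe2l2), which answers oxidative and electrophilic stress.

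Most of the expressed members were lower in GFP-positive cells. Of the 46 members, 33 passed the count filter, 22 of these were lower, 1 was higher and 10 were not called (edgeR quasi-likelihood test, Benjamini-Hochberg adjusted p below 0.05 over all genes tested). Among all 14554 tested genes, 55.4% were called, 29.2% lower and 26.1% higher. The median log2 fold change (also called log2 difference, GFP-positive minus GFP-negative) was -0.94 over the tested members and -0.01 over all tested genes. In 27 of the 33 the 3 GFP-positive values did not overlap the 3 GFP-negative ones, 25 of them below and 2 above, while 64.2% of all tested genes did not overlap. The filter asks for about 0.287 CPM in 3 libraries, and a gene can pass it through the group where it is high. Of the tested members, 28 reached that level in every library, of which 19 were lower, 1 higher and 8 not called. Aldh1a3, Gstm6, Gsto2 and Gstt3 reached it in every GFP-negative and in fewer GFP-positive libraries.

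**Figure D1:**
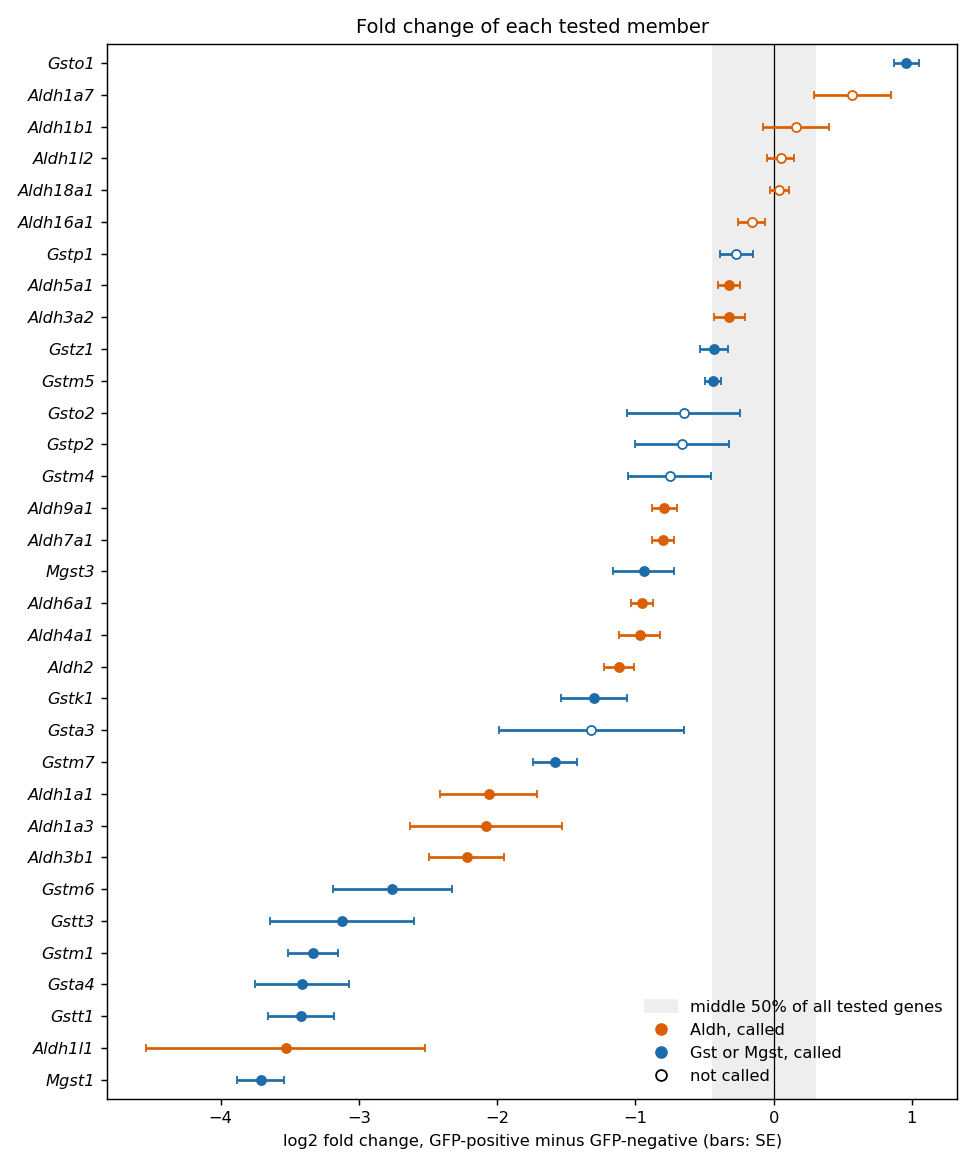
Log2 fold change of each of the 33 tested members (x axis, GFP-positive minus GFP-negative; bars show 1 SE; open points were not called), with the middle 50% of all tested genes shaded. The members run from -3.71 for Mgst1 to 0.96 for Gsto1, and Gsto1 is the called point to the right of 0.

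Of the aldehyde dehydrogenases, 11 of 16 tested were lower, 5 were not called and 0 were higher. With edgeR at an unadjusted p below 0.05, and with DESeq2 and limma voom, 0 were higher as well. Without replicate 3, 7 were lower. The folate enzymes come first. Aldh1l1 (Entrez 107747), the cytosolic 10-formyltetrahydrofolate dehydrogenase, stood at 1.20, 11.02 and 1.496 CPM in GFP-positive replicates 1, 2 and 3, against 15.2, 121 and 26.9 CPM in GFP-negative replicates 1, 2 and 3. The groups did not overlap, and replicate 2 was the highest of its group on both sides of the sort. It was lower, at a log2 difference of -3.53 (SE 1.01, edgeR adjusted p = 0.0173). The SE was the largest among the tested members, and the call was lost without GFP-positive replicate 1 (adjusted p = 0.0619), without GFP-positive replicate 3 (0.0593) and without both libraries of replicate 3 (0.0722). Without GFP-negative replicate 2 the value was -2.15 and without GFP-positive replicate 2 it was -5.32. Without both libraries of replicate 2 it was -3.95 (edgeR adjusted p = 1.76e-05). Setting libraries of the same number side by side gave log2 ratios (with 0.5 CPM added) of -3.21, -3.40 and -3.78, and the fit with the replicate number as a block gave -3.69 (edgeR adjusted p = 4.52e-07).

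The high replicate 2 value was not shared by the genes on either side of Aldh1l1. Klf15, a transcription factor gene, was at 13.2, 11.3 and 11.5 CPM in GFP-positive replicates 1, 2 and 3, against 54.5, 46.1 and 54.5 CPM in the GFP-negative ones. Slc41a3, a magnesium transporter family gene, was at 0.272, 0.486 and 0.680 CPM in GFP-positive replicates 1, 2 and 3, against 4.58, 3.47 and 8.10 CPM in the GFP-negative ones. Neither GFP-negative replicate 2 value was the highest of its group. Aldh1l1 in replicate 2 was 7.36-fold above the higher of the other GFP-positive libraries and 4.5-fold above the higher of the other GFP-negative ones. By a rule chosen after the values were seen, 8 tested genes were over 4-fold higher in replicate 2 (0.5 CPM added) than in either other number on both sides of the sort: Aldh1l1, Pax3, Zic1, Zic2, Zfhx4, Gria4, Casp12 and Col3a1. Pax3, Zic1 and Zic2 are transcription factors known from the dorsal neural tube. The astrocyte marker sum of GFP-positive replicate 2, 627 CPM, was the highest of its group, where the others were 510 and 577 CPM, and that of GFP-negative replicate 2, 3919 CPM, lay between the other GFP-negative sums. The part of these markers in the replicate 2 values was not tested.

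**Figure D2:**
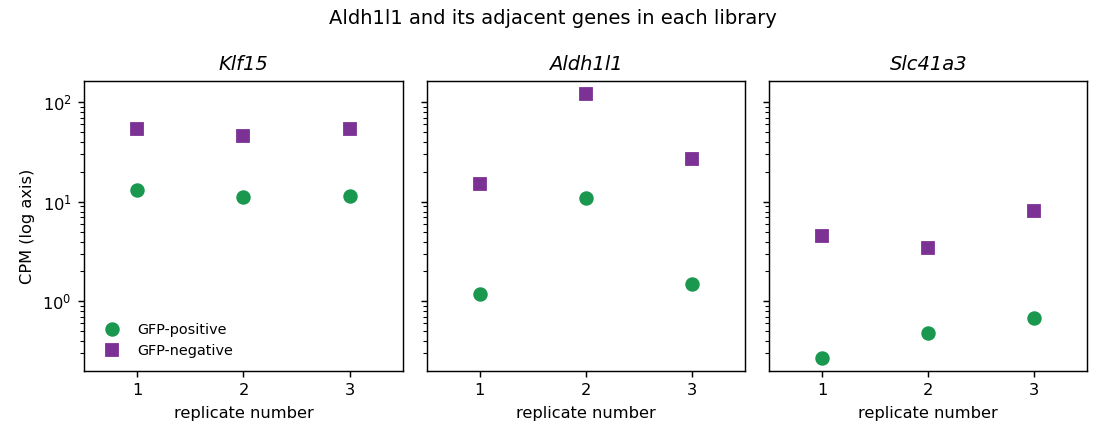
CPM (log axis) of Aldh1l1 and of the adjacent genes Klf15 and Slc41a3 in each library, by replicate number. Aldh1l1 is highest in replicate 2 in both fractions, at 11.02 and 121 CPM, and in each number the GFP-positive point lies below the GFP-negative one.

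The mitochondrial counterpart was not called. Aldh1l2 (Entrez 216188), the mitochondrial 10-formyltetrahydrofolate dehydrogenase, was at 289.7, 343 and 307 CPM in GFP-positive replicates 1, 2 and 3, against 338, 307 and 263 CPM in the GFP-negative ones. The groups overlapped. The log2 difference was 0.05 (SE 0.10, edgeR adjusted p = 0.694), with a 95% interval from -0.18 to 0.28, so a change of the size seen for Aldh1l1 lies outside it.

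Among the retinoic acid enzymes, Aldh1a1 (Entrez 11668), a retinal dehydrogenase, was at 2.15, 3.22 and 3.75 CPM in GFP-positive replicates 1, 2 and 3, against 11.04, 7.81 and 19.2 CPM in the GFP-negative ones. All GFP-positive values lay below all GFP-negative ones. The log2 fold change was -2.06 (SE 0.35, edgeR adjusted p = 0.00135). Aldh1a3 (Entrez 56847), another retinal dehydrogenase, was near the detection limit at 0.490, 0.0883 and 0.326 CPM in GFP-positive replicates 1, 2 and 3, against 1.36, 0.765 and 1.62 CPM in the GFP-negative ones. It was lower as well, by a log2 difference of -2.08 (SE 0.55, edgeR adjusted p = 0.0127), and the call was lost without replicate 3 (0.104). Aldh1a2, the third retinal dehydrogenase, was not tested and reached 0.191 CPM at most.

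Aldh1a7 (Entrez 26358), a rodent copy next to Aldh1a1 in the gene order, had a log2 difference of 0.57 (SE 0.28, edgeR adjusted p = 0.122), at 1.06 to 1.55 CPM in GFP-positive libraries, against 0.667 to 0.940 CPM in the GFP-negative ones, groups that did not overlap. The 2 coding sequences are 91.7% identical over 1506 bases (GENCODE M21), so reads could be assigned to either, and 3.06% of the 50-base words of Aldh1a1 transcripts and 7.49% of those of Aldh1a7 also occur in the other gene. The first 60 coding bases of both, on chromosome 19, are shown because they make plain how close the copies are; capitals mark bases of Aldh1a7 that differ from Aldh1a1, 3 in all.
Aldh1a1: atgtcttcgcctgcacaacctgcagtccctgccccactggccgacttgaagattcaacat
Aldh1a7: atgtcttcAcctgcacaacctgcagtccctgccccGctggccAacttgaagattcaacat
With the counts of both added up, the log2 fold change was -1.64 (edgeR adjusted p = 0.0025).

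Of the enzymes of general aldehyde removal, Aldh2 (Entrez 11669), which oxidises acetaldehyde in mitochondria, was at 18.9, 16.4 and 19.5 CPM in GFP-positive replicates 1, 2 and 3, against 43.9, 35.2 and 39.6 CPM in the GFP-negative ones, with no overlap. It was lower, with a log2 difference of -1.12 (SE 0.11, edgeR adjusted p = 7.27e-05). Its close relative Aldh1b1 had a log2 difference of 0.16 (SE 0.24, 95% interval -0.39 to 0.71) at 1.60 CPM or less, and was not called. Aldh16a1, a family member with little known activity in mammals, had -0.16 (SE 0.10, edgeR adjusted p = 0.21) with means of 9.17 CPM (GFP-positive) and 10.3 CPM (GFP-negative).

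The aldehyde dehydrogenases of amino acid breakdown described here were lower in GFP-positive cells, each called. Aldh6a1 (Entrez 104776), of valine breakdown, was at 33.7, 30.7 and 32.2 CPM in GFP-positive replicates 1, 2 and 3, against 59.6, 58.7 and 67.8 CPM in the GFP-negative ones (log2 fold change -0.95, SE 0.08). For Aldh7a1 (Entrez 110695), of lysine breakdown, the values were 49.1, 49.7 and 49.99 CPM in GFP-positive replicates 1, 2 and 3, against 86.3, 78.1 and 94.6 CPM in the GFP-negative ones (-0.80, SE 0.08). In neither gene did the groups overlap, and the edgeR adjusted p was 3.04e-05 for Aldh6a1 and 6.68e-05 for Aldh7a1. Aldh4a1 (Entrez 212647), of proline breakdown, was at 13.8, 15.5 and 16.6 CPM in GFP-positive replicates 1, 2 and 3, against 26.1, 26.2 and 37.5 CPM in the GFP-negative ones (-0.97, SE 0.15, edgeR adjusted p = 0.00101). Of the Aldh4a1 exon bases, 32.5% are shared on the same strand with the gene model Gm21969 in GENCODE M21, so its reads could have been split. Aldh9a1 (Entrez 56752), which acts on aminoaldehydes and in carnitine synthesis, was at 20.3, 17.9 and 17.5 CPM in GFP-positive replicates 1, 2 and 3, against 30.4, 32.8 and 33.2 CPM in the GFP-negative ones. Here too the groups stood apart, with a log2 difference of -0.79 (SE 0.09, edgeR adjusted p = 1.37e-04).

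A smaller difference was found for Aldh5a1 (Entrez 214579), the succinic semialdehyde dehydrogenase of GABA breakdown, at 55.7, 50.02 and 53.9 CPM in GFP-positive replicates 1, 2 and 3, against 61.3, 64.6 and 72.8 CPM in the GFP-negative ones. It was lower, with a log2 difference of -0.32 (SE 0.08, edgeR adjusted p = 0.00974), and lost its call without replicate 3 (0.0803). Aldh18a1 (Entrez 56454), the enzyme that opens proline synthesis, was not called. It stood at 218, 257 and 233 CPM in GFP-positive replicates 1, 2 and 3, against 243, 228 and 217 CPM in the GFP-negative ones. The groups overlapped, with a log2 difference of 0.04 (SE 0.07, edgeR adjusted p = 0.659, 95% interval -0.13 to 0.21).

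The lipid aldehyde enzymes were both lower. Aldh3a2 (Entrez 11671), the fatty aldehyde dehydrogenase, was at 28.8, 35.98 and 28.9 CPM in GFP-positive replicates 1, 2 and 3, against 40.1, 41.2 and 35.4 CPM in the GFP-negative ones. GFP-positive replicate 2 lay above GFP-negative replicate 3, and the log2 difference of -0.32 (SE 0.11, edgeR adjusted p = 0.0341) was no longer called in 6 of the 9 fits that each left out 1 library or both libraries of a number (largest adjusted p 0.249). Aldh3b1 (Entrez 67689), which also acts on lipid aldehydes, was at 0.572, 0.883 and 0.653 CPM in GFP-positive replicates 1, 2 and 3, against 3.67, 2.52 and 3.73 CPM in the GFP-negative ones. Its groups did not overlap (-2.22, SE 0.27, edgeR adjusted p = 2.58e-04). Exons on the opposite strand overlap parts of several members, among them 14.1% of the exon bases of Aldh1l2 and of Aldh5a1, 18.6% of Aldh6a1, 13.9% of Gstm5, 9.14% of Gstz1, and 499 exon bases of Aldh1l1. The strand setting of the counting is not given in the sources used here.

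**Figure D3:**
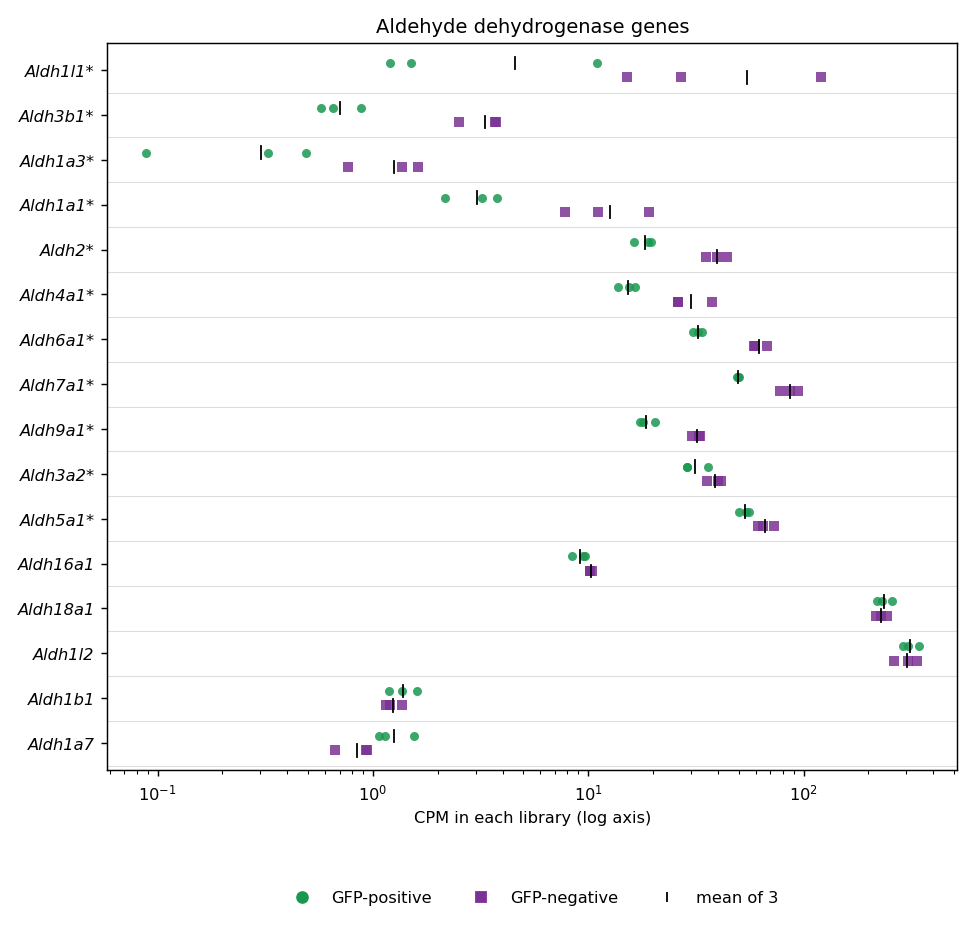
CPM in each library (log axis) of the 16 tested aldehyde dehydrogenase genes, with GFP-positive points above GFP-negative ones and a bar at each mean; an asterisk marks called genes. Aldh1l1 spreads widest within each group on this axis, 1.20 to 11.02 CPM in GFP-positive and 15.2 to 121 CPM in GFP-negative cells. Aldh18a1 and Aldh1l2 overlap at the highest CPM.

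Of the glutathione S-transferases and microsomal ones together, 11 of 17 tested were lower, 1 was higher and 5 were not called. The mu class (Gstm), whose 7 members lie next to each other on chromosome 3, held the member with the highest level per exon length in GFP-negative cells. Gstm1 (Entrez 14862) was at 18.9, 19.7 and 22.7 CPM in GFP-positive replicates 1, 2 and 3, against 215, 153 and 247 CPM in the GFP-negative ones. Each GFP-positive library lay far below each GFP-negative one. The log2 fold change was -3.33 (SE 0.18, edgeR adjusted p = 4.62e-06), or 10.1-fold lower in GFP-positive cells. Gstm6 (Entrez 14867) was at 0.191, 0.464 and 0.299 CPM in GFP-positive replicates 1, 2 and 3, against 1.70, 1.63 and 3.31 CPM in the GFP-negative ones, lower at a log2 difference of -2.76 (SE 0.43, edgeR adjusted p = 9.45e-04). Gstm7 (Entrez 68312) averaged 5.01 ± 0.24 CPM among GFP-positive libraries, against 15.0 ± 2.87 CPM among GFP-negative libraries (SD, n = 3 each), a log2 difference of -1.58 (SE 0.16, edgeR adjusted p = 8.32e-05).

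Gstm5 (Entrez 14866), which stands first in the row, moved least among the called mu genes. It was at 43.1, 43.4 and 39.7 CPM in GFP-positive replicates 1, 2 and 3, against 56.9, 55.6 and 58.4 CPM in the GFP-negative ones. The groups did not overlap, with a log2 difference of -0.44 (SE 0.06, edgeR adjusted p = 5.26e-04). Gstm4 (Entrez 14865) had a log2 difference of -0.75 (SE 0.30, edgeR adjusted p = 0.068) and, of the settings run, was called with the replicate block alone (-0.79, adjusted p = 0.038). Gstm2 and Gstm3 were not tested, at 0.334 and 0.0956 CPM at most. The coding sequences of the mu genes other than Gstm5 are 79.1% to 89.5% identical to each other, and 18.9% of the 50-base words of Gstm1 transcripts occur in other genes, chiefly the pseudogene Gstm2-ps1 and Gstm3. That share was 28.8% for Gstm3, 5.97% for Gstm6, 5.65% for Gstm2, 0.532% for Gstm7 and 0.0% for Gstm4. The first 60 coding bases are shown for these copies, with capitals where a base differs from Gstm1. A read can be told from one of Gstm1 only at such bases.
Gstm1: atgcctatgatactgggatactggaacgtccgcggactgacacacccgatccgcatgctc
Gstm2: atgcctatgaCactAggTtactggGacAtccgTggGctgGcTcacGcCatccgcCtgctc
Gstm3: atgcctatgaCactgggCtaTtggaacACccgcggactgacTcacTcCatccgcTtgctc
Gstm4: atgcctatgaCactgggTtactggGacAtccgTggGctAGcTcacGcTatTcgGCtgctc
Gstm6: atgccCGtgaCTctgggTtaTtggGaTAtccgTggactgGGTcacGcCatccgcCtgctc
Gstm7: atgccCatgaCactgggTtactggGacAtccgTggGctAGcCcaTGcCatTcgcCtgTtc
Between 9 (Gstm3) and 16 (Gstm6 and Gstm7) of these 60 bases differ from Gstm1. With Gstm1, Gstm2, Gstm3 and Gstm6 added up, the log2 fold change was -3.32 (edgeR adjusted p = 4.87e-06).

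In the theta class, 4 genes lie next to each other on chromosome 10. Gstt1 (Entrez 14871) was at 3.92, 3.29 and 5.09 CPM in GFP-positive replicates 1, 2 and 3, against 45.8, 31.2 and 54.7 CPM in the GFP-negative ones. Its neighbour Gstt3 (Entrez 103140) was at 0.627, 0.243 and 0.734 CPM in GFP-positive replicates 1, 2 and 3, against 5.004, 2.07 and 6.71 CPM in the GFP-negative ones. Both were lower with no overlap, Gstt1 by a log2 difference of -3.42 (SE 0.24, edgeR adjusted p = 1.60e-05) and Gstt3 by -3.12 (SE 0.52, edgeR adjusted p = 0.00134). Of the Gstt3 exon bases, 13.6% are shared on the same strand with the gene model Gm20441. In both genes and on both sides of the sort the replicate 2 library was the lowest of its group. Gstt2 and Gstt4, the other two, reached 0.356 and 0.127 CPM at most and were not tested.

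Gsta4 (Entrez 14860), the alpha class enzyme that handles hydroxynonenal, a product of lipid peroxidation, was at 1.69, 2.01 and 2.50 CPM in GFP-positive replicates 1, 2 and 3, against 20.3, 13.0 and 32.5 CPM in the GFP-negative ones. The groups lay far apart, at a log2 difference of -3.41 (SE 0.34, edgeR adjusted p = 9.30e-05). Gsta3 had few counts, at 0.745 CPM or less, and was not called (-1.32, SE 0.67, edgeR adjusted p = 0.131). Without GFP-negative replicate 2 it was called (-1.71, edgeR adjusted p = 0.0355). It had -2.10 without GFP-positive replicate 1 and -0.64 without replicate 3, neither of them called (edgeR adjusted p = 0.0546 and 0.569).

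The microsomal transferases are membrane proteins of another family. Mgst1 (Entrez 56615), which also reduces lipid hydroperoxides, was at 3.73, 4.08 and 3.73 CPM in GFP-positive replicates 1, 2 and 3, against 50.04, 39.6 and 62.3 CPM in the GFP-negative ones. The lowest GFP-negative library was far above the highest GFP-positive one. Its log2 difference of -3.71 (SE 0.17, edgeR adjusted p = 3.08e-06) was the most negative among the tested members, 13.1-fold lower in GFP-positive cells. Mgst3 (Entrez 66447) averaged 2.43 ± 0.49 CPM among GFP-positive libraries, against 4.66 ± 0.85 CPM among GFP-negative libraries (SD, n = 3 each), lower at a log2 difference of -0.94 (SE 0.22, edgeR adjusted p = 0.00661), and lost its call without replicate 3 (0.0893). Mgst2 had no count in any library.

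Among the remaining classes, the omega class enzyme Gsto1 reduces dehydroascorbate rather than acting as a typical transferase. Its gene (Entrez 14873) was the called member that was higher. It stood at 34.9, 31.2 and 36.6 CPM in GFP-positive replicates 1, 2 and 3, against 18.4, 17.8 and 16.4 CPM in the GFP-negative ones. All GFP-positive values lay above all GFP-negative ones, with a log2 difference of 0.96 (SE 0.09, edgeR adjusted p = 6.13e-05). It was called in each of these 9 leave-out fits, with values of 0.87 to 1.05 over these and the other settings. Gsto2, its neighbour on chromosome 19, had -0.65 (SE 0.41, edgeR adjusted p = 0.216) at 0.616 CPM or less.

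Gstz1 (Entrez 14874), the maleylacetoacetate isomerase of tyrosine breakdown, was at 22.9, 20.95 and 22.2 CPM in GFP-positive replicates 1, 2 and 3, against 30.4, 26.0 and 32.4 CPM in the GFP-negative ones. It was lower with no overlap, at a log2 difference of -0.43 (SE 0.10, edgeR adjusted p = 0.00605), and lost its call without replicate 1 (0.0522) and without replicate 3 (0.0686). Gstk1 (Entrez 76263), the kappa class enzyme of mitochondria and peroxisomes, averaged 2.66 ± 0.41 CPM among GFP-positive libraries, against 6.53 ± 2.01 CPM among GFP-negative libraries (SD, n = 3 each), a log2 difference of -1.30 (SE 0.24, edgeR adjusted p = 0.00233).

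The pi class was not called. Gstp1 (Entrez 14870) averaged 7.53 ± 0.56 CPM among GFP-positive libraries, against 9.10 ± 0.82 CPM among GFP-negative libraries (SD, n = 3 each), with a log2 difference of -0.27 (SE 0.12, edgeR adjusted p = 0.0876, 95% interval -0.55 to 0.01), and was called without GFP-negative replicate 2 (0.0459). Gstp2 (Entrez 14869) had -0.66 (SE 0.34, edgeR adjusted p = 0.128) at 0.988 CPM or less, and Gstp3 was not tested. Gstp1 and Gstp2 are the closest pair of the families, 98.1% identical over 633 coding bases, and 33.7% of the 50-base words of Gstp1 and 54.3% of those of Gstp2 occur in another gene. Their first 60 coding bases, on chromosome 19, are shown as a stretch where a read can be told apart; capitals mark the 6 bases of Gstp2 that differ from Gstp1.
Gstp1: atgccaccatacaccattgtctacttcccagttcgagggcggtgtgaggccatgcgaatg
Gstp2: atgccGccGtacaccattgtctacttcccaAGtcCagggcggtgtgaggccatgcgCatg
With Gstp1, Gstp2 and Gstp3 added up, the log2 fold change was -0.30 (edgeR adjusted p = 0.0564).

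**Figure D4:**
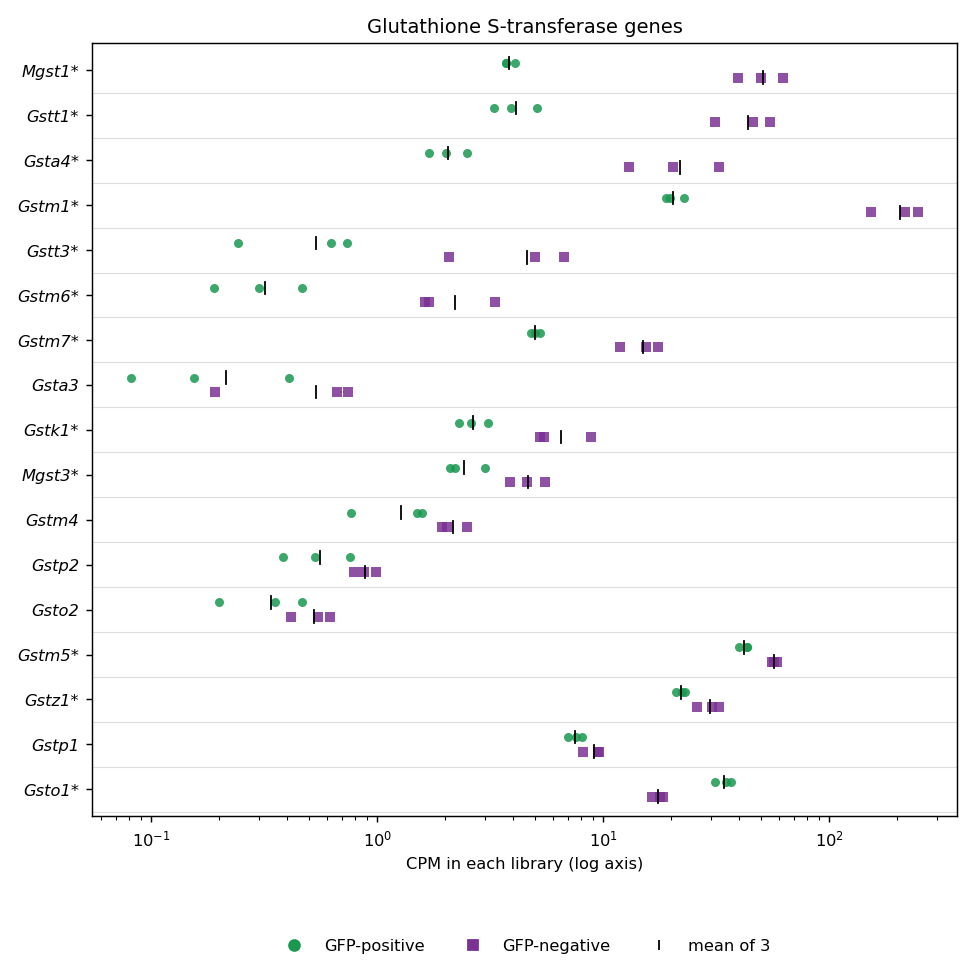
CPM in each library (log axis) of the 17 tested glutathione S-transferase and microsomal genes, with GFP-positive points above GFP-negative ones and a bar at each mean; an asterisk marks called genes. Mgst1, Gstt1, Gsta4 and Gstm1 stand at the top with the groups far apart, and Gsto1 is the called gene with GFP-positive points to the right.

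In sum over the genes of each family, the aldehyde dehydrogenases took 744 to 844 CPM in GFP-positive libraries, against 925 to 1016 CPM in the GFP-negative ones. The glutathione S-transferases and microsomal ones took 144 to 155 CPM in GFP-positive libraries, against 374 to 560 CPM in the GFP-negative ones. Divided by exon length (GENCODE M21, as CPM per kilobase), the highest levels among tested members in GFP-positive cells were those of Aldh18a1, Aldh1l2, Gstm5, Gsto1 and Gstm1, at means of 58.0, 41.8, 32.9, 16.9 and 13.9 CPM per kilobase. In GFP-negative cells Gstm1 came first at a mean of 139 CPM per kilobase, above Aldh18a1 at 56.3, Gstm5 at 44.6, Aldh1l2 at 40.3, Gstt1 at 28.7 and Mgst1 at 25.1. Gstm5 and Aldh1l2 overlapped there, at 43.5 to 45.7 and 35.0 to 45.1 CPM per kilobase. By this measure Mgst1 held place 18 of 33 in GFP-positive and place 6 in GFP-negative cells, while Gsto1 held places 4 and 14.

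The 13 members that did not pass the filter had few counts or none. Aldh3a1, Aldh3b3, Gsta1, Gsta2 and Mgst2 had 0 counts in 214062553 counts over the 6 libraries, which allows a level of up to 0.0140 CPM (3 counts, counting error only). Gsta1 and Gsta2 are 97.5% identical in coding sequence and Aldh3b2 and Aldh3b3 are close copies too, so a count could be lost between copies. The highest values of the others in any library were 0.356 CPM for Gstt2, 0.334 for Gstm2, 0.245 for Aldh8a1, 0.191 for Aldh1a2, 0.127 for Gstt4, 0.0956 for Gstm3, 0.0607 for Gstp3 and 0.0303 for Aldh3b2.

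Genes that work with these enzymes were described in 5 lists. For comparison, 29.2% of all tested genes were lower and 26.1% higher, with a median log2 fold change of -0.01. Of the 29 tested glutathione genes, 15 were lower, 6 higher and 8 not called, with a median log2 fold change of -0.28. Gpx8, a peroxidase of the endoplasmic reticulum, averaged 3.396 ± 0.44 CPM among GFP-positive libraries, against 33.3 ± 8.43 CPM among GFP-negative libraries (SD, n = 3 each; log2 fold change -3.30), and Slc7a11, which imports cystine for glutathione synthesis, had -2.14. Higher were Abcc1, an exporter of glutathione conjugates, by 0.94 and Ggt7, of the gamma-glutamyltransferase family, by 1.07. The synthesis enzymes Gclc and Gss were not called, at -0.03 and 0.00, while Gclm, the modifier subunit of the first step, was lower at -0.73.

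Of 26 tested genes of Nrf2, its regulators and its known targets, 14 were lower, 3 higher and 9 not called, with a median of -0.28. Txn1, which encodes thioredoxin, averaged 51.3 ± 0.97 CPM among GFP-positive libraries, against 181 ± 19.2 CPM among GFP-negative libraries (SD, n = 3 each; log2 fold change -1.82), and Ephx1, an epoxide hydrolase, had -3.23. Nfe2l2 itself was lower at -2.32 and its target Nqo1 at -2.22. Keap1, which holds Nrf2 in check, was not called (-0.14). Txnrd1, a thioredoxin reductase, was higher by 0.44 and Bach1, a repressor at Nrf2 sites, by 0.35. The targets Hmox1 (-0.25), Srxn1 (-0.15) and G6pdx (0.12) were not called.

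A motif of Nrf2 sites, TGACNNNGC, was searched on both strands in RefSeq promoter windows (GRCm38.p6) of 250 bases before to 50 after each start. Such windows were given for 38 members, 49 windows in all, and 6 of these windows held the motif, or 12.2%, against 12.4% of the 32851 windows of all genes. Overlap with other motifs was not examined. The windows with a match belonged to Mgst1, Gstm7, Gstm5, Aldh9a1, Gsta3 and Aldh1a2. Those of Mgst1 and Gstm7 are shown as members lower in GFP-positive cells that hold it (capitals mark the match), beside that of Gstm1, which was lower too and has none in this window. A match is a description and not a bound site.
Mgst1 (chr6:138140277-138140576, + strand): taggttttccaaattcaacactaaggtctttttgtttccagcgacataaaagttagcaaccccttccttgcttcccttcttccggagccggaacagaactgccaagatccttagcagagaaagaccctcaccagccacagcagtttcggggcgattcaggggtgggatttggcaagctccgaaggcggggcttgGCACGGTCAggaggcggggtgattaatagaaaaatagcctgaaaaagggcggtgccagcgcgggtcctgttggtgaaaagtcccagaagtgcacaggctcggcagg
Gstm7 (chr3:107931565-107931864, - strand): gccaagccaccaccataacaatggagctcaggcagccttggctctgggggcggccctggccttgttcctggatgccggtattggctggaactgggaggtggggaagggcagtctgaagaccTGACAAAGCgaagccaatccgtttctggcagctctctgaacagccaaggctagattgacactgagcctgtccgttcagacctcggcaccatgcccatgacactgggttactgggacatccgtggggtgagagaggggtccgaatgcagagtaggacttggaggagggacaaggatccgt
Gstm1 (chr3:108017769-108018068, - strand): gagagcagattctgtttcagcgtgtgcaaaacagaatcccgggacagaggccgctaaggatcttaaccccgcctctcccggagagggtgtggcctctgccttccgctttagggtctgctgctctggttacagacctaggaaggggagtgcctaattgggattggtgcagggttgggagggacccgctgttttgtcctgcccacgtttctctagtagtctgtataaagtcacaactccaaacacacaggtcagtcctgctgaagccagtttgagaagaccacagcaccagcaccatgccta
The match of Mgst1 reads on the opposite strand.

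The other lists held metabolic partners of the aldehyde dehydrogenases. Of 20 tested retinoid genes, 8 were lower, 1 higher and 11 not called (median -0.12). Dhrs4 and Rdh5, retinal or retinol dehydrogenases, had -1.53 and -1.99, the retinoic acid receptor Rarb had -2.35, and Rxrb, a retinoid X receptor, was higher by 0.68. Of 24 folate genes, 11 were lower, 4 higher and 9 not called (median -0.23), with Gldc and Gcsh of the glycine cleavage system both at -0.74, Mthfd2l higher by 0.59 and Gart, of purine synthesis, by 0.22. Gart lost its call without replicate 3 (edgeR adjusted p = 0.0844). The count of higher folate genes was 1 without replicate 3, and 2 without GFP-positive replicate 1, without GFP-negative replicate 1 or without both. Without GFP-positive replicate 3, replicate 1 or replicate 3, 5 retinoid genes were lower, and without GFP-negative replicate 3, 2 were higher.

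Among 21 tested genes that make or share the aldehyde substrates, 9 were lower, 2 higher and 10 not called (median -0.45). Sardh, the sarcosine dehydrogenase, averaged 6.85 ± 1.27 CPM among GFP-positive libraries, against 73.7 ± 12.5 CPM among GFP-negative libraries (SD, n = 3 each; log2 fold change -3.42). Oat, the ornithine aminotransferase, had -1.36. Abat, the GABA transaminase upstream of Aldh5a1, had -1.86, and Maob, the amine oxidase that yields aldehydes from amines, -2.79. Higher were Bcat1, the cytosolic branched-chain aminotransferase, by 0.51 and Akr1b3, the aldose reductase, by 0.35. Akr1b3 lost its call in 4 of the 9 leave-out fits, where the largest adjusted p was 0.182. Without GFP-positive replicate 1, GFP-positive replicate 3 or replicate 3, 1 gene of this list was higher. Over the 5 lists, 16 of 120 tested genes were higher, or 10 without replicate 3, and 57 were lower. Another 47 were not called, and the median was -0.27. Among all tested genes 55.4% were called, 29.2% lower and 26.1% higher.

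**Figure D5:**
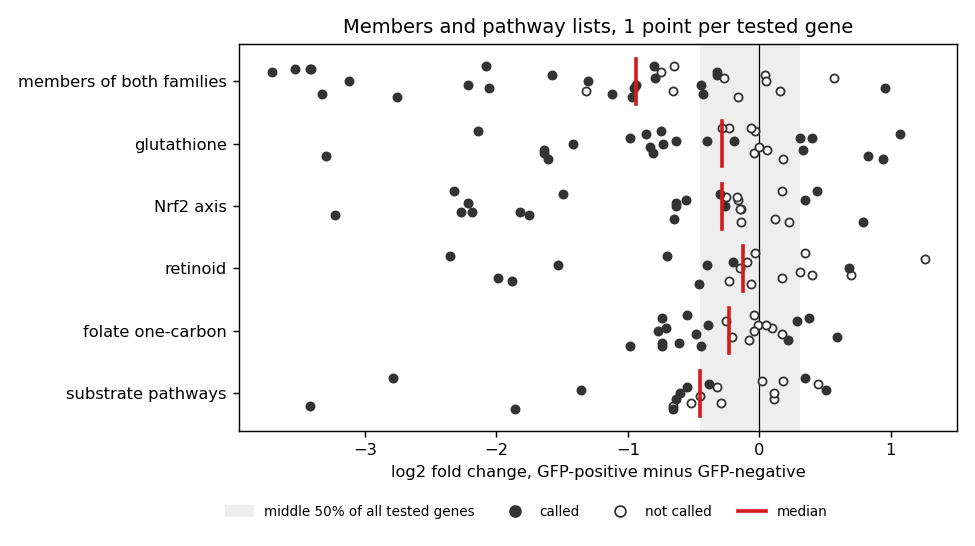
Log2 fold change (x axis, GFP-positive minus GFP-negative) of each tested member and of each tested gene in the 5 lists, with filled points for called genes, a red bar at each median and the middle 50% of all tested genes shaded. The members' median is -0.94 and those of the lists lie between -0.45 and -0.12.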

How the data were processed

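RNA was measured in 6 libraries, 3 per sorted fraction. Per the labels' protocols, RNeasy lysates gave the RNA and the SMART-Seq Stranded kit the cDNA libraries. The submitters' processing notes name TopHat2 2.1.1, featureCounts 2.0.0 and mm39, among others; the annotation, strand setting and handling of reads with several alignments were not stated there. The authors deposited raw read counts per gene with no normalization.

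Counts of 26264 genes were tested with edgeR 4.0.16 in R 4.3.3: TMM scaling, filterByExpr (14554 genes left), a model with the fraction alone, quasi-likelihood F test, Benjamini-Hochberg adjustment over all genes tested, threshold 0.05. CPM values use the TMM-scaled library sizes, and an SE is the fold change divided by the root of F. The script was tested on simulated data. Total counts lay between 31067850 and 45207335; counting intervals cover counting error only.

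No library was a copy of another: within a group, chi-square over its degrees of freedom was 9.83 to 34.2. GFP-positive and GFP-negative libraries of 1 number deviated together (correlations 0.218, 0.355 and 0.159 for replicates 1, 2 and 3, each above 0.1). The highest correlation of each GFP-positive library with a GFP-negative library of another number was 0.00967, -0.143 and 0.128. For replicate 3 that value also lay above 0.1. A fit with the number as a block was run as an alternative. The main fold changes, p-values and calls come from the model without that block, which leaves the pairing out. Alternatives were RLE and upper-quartile scaling, centring, other count filters, the block, DESeq2 1.42.0, limma 3.58.1 voom, summed copies, and leaving out libraries or numbers. Coding sequences, exon lengths and 50-base words come from GENCODE M21 (GRCm38), another build than the authors' mm39, so the only positions given are those of RefSeq promoter windows, on GRCm38.p6.

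The members and lists were chosen with earlier results of these data known. Every tested member was named; values in every library were given for members at a mean of at least 10 CPM and for called members with an absolute log2 fold change above 2. In each list the 2 called genes with the smallest p in each direction were named. Gclc, Gss, Gclm, Nfe2l2, Nqo1, Keap1, Hmox1, Srxn1, G6pdx, Rarb, Abat and Maob were added after their values were seen. The mature oligodendrocyte marker list is not reported in full here.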

Additional observations from a re-analysis of the deposited data

How the results depend on the processing

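Over the 33 tested members and the alternatives run for each, 533 values kept their direction and their side of the threshold, 14 lost the call, 3 gained it and 6 changed sign. All 14 losses came from leaving out a library or a number. The sign changes were those of Aldh18a1 (-0.021 to 0.147 when libraries or numbers were left out) and Aldh1l2 (-0.033 to 0.200), which were called in no setting. In every setting run, 1 member was higher; the count lower lay between 16, without replicate 3, and 24. With the replicate block, 23 members were lower, Gstm4 being gained (-0.788, edgeR adjusted p = 0.038); no other tested member's call changed, and 16 list genes were higher and 59 lower. Leaving out libraries or numbers gave 2450 to 4169 higher genes among all tested genes, against 3804 with all libraries, and 10 to 17 among the list genes. Both lowest counts came without replicate 3. Each fit that left out a number used fewer libraries. In either direction, 5729, 8333 and 5401 genes were called without replicates 1, 2 and 3, against 8058 with all libraries. Why these counts differ was not tested. Summing Aldh3b2 with Aldh3b3 and Gsta1 with Gsta2 was not run, as none of them passed the count filter, where depth limits what can be said.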
